A study of Mus musculus with 7 samples.

Results

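The Hox genes of the mouse were followed here as every protein-coding gene of the deposited table whose symbol is Hoxa, Hoxb, Hoxc or Hoxd with a number, which gave 39 of 46671 genes. Of these, 11 belonged to the Hoxa cluster, 10 to Hoxb, 9 to Hoxc and 9 to Hoxd. RNA had been sequenced from epithelium labelled as colorectal, taken from 8-week-old BALB/C mice kept free of specific pathogens. The cKO group had 4 libraries from mice in which MST3, the kinase encoded by Stk24, was knocked out in intestinal epithelial cells. The Ctrl group had 3 libraries from wild-type mice, which the design text calls littermates. The labels name no Cre driver and leave unsaid whether the libraries are from different mice, and p-values therefore reflect variation among the 7 libraries alone, which may be technical. The treatment label of both groups states that no drug was given, whereas the design text names azoxymethane and dextran sulfate sodium (AOM and DSS); the labels do not resolve which applies.

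Hox genes encode homeodomain transcription factors that give cells their position along the anterior-posterior axis. They lie in clusters in the order of their action, so that genes of low paralog number are used towards the head and those of high number towards the tail, and in the gut the genes of paralog group 13 are known for their expression in the hindgut and colon. Their proteins bind DNA with TALE cofactors such as Pbx and Meis, the ParaHox proteins Cdx1 and Cdx2 act upstream of them in the intestine, and Polycomb complexes keep the clusters silent where they are not used.

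The clusters also hold microRNA genes, shown here with their seeds because these seeds group the genes across clusters. In the sequences below, from RefSeq on GRCm38.p6, the capitals mark bases 2 to 8.
miR-10a-5p: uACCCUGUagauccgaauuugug
miR-10b-5p: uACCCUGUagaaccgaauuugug
miR-196a-5p: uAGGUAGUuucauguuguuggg
miR-196b-5p: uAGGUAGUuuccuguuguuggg
miR-615-5p: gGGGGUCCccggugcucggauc
The seed of miR-10a-5p, from Mir10a in Hoxb, was shared by miR-10b-5p, from Mir10b in Hoxd. The miR-196 seed occurred in Hoxa (Mir196b), Hoxb (Mir196a-1) and Hoxc (Mir196a-2), and Mir615 in Hoxc had a seed of its own. All 6 hairpin genes had 0 reads in all 7 libraries, where 3 reads would have stood at 1.41 to 3.17 FPKM. Sequencing of mRNA does not assay mature microRNAs, so these zeros describe the hairpin genes only.

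Between 14659708 and 19659622 reads per library were assigned to genes, recovered from the deposited FPKM as described for the processing. FPKM are fragments per kilobase of gene, scaled to library size. The size implied by that scaling was not the recovered total, at 0.891 times it in cKO replicate 4 and 1.10 times it in cKO replicate 2. Stk24 stood at 3.34 ± 0.435 FPKM in cKO (SD, n = 4) and 19.9 ± 0.926 FPKM in Ctrl (SD, n = 3), and fell by 2.42 on the log2 scale in cKO (SE 0.12, limma adjusted p = 0.000427). Epithelial genes were abundant, with the keratin gene Krt8 at 2123 ± 382 FPKM in cKO and 2155 ± 116 FPKM in Ctrl. The regional markers went against the colorectal label. Apoa1, an apolipoprotein gene of small-intestinal enterocytes, stood at 9673 ± 3279 FPKM in cKO and 12462 ± 2588 FPKM in Ctrl, and the Paneth cell defensin gene Defa24 at 5478 ± 3937 FPKM in cKO and 10135 ± 5963 FPKM in Ctrl. Of the colon genes, Aqp8 had 80 reads over the 7 libraries and Car1 had 2, although Car4 stood at 106 ± 25.8 FPKM in cKO and 99.5 ± 12.2 FPKM in Ctrl. All of these values are of n = 4 cKO and n = 3 Ctrl libraries.

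No Hox gene reached a mean of 0.5 FPKM, the level required for testing in limma, so 0 of the 39 were tested. Of all 13057 genes tested, 4 were called (0.0306%). Over all 7 libraries the Hox genes together had 343 reads, 213 in cKO and 130 in Ctrl. At least 1 read fell on 23 members and 16 had none (41.0%). No read fell on 54.9% of other protein-coding homeobox genes, 25.2% of all protein-coding genes and 45.7% of all genes. At least 3 reads in some library fell on 15, and at least 10 reads in some library on 3, which were Hoxa3, Hoxb5 and Hoxb6. Of 213 other protein-coding homeobox genes, 33 reached a mean of 0.5 FPKM (15.5%), as did 50.5% of all 22186 protein-coding genes. In bulk RNA, a low level in few cells and a lower level in all cells cannot be told apart. Intervals and floors given here cover counting error only.

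**Figure D1:**
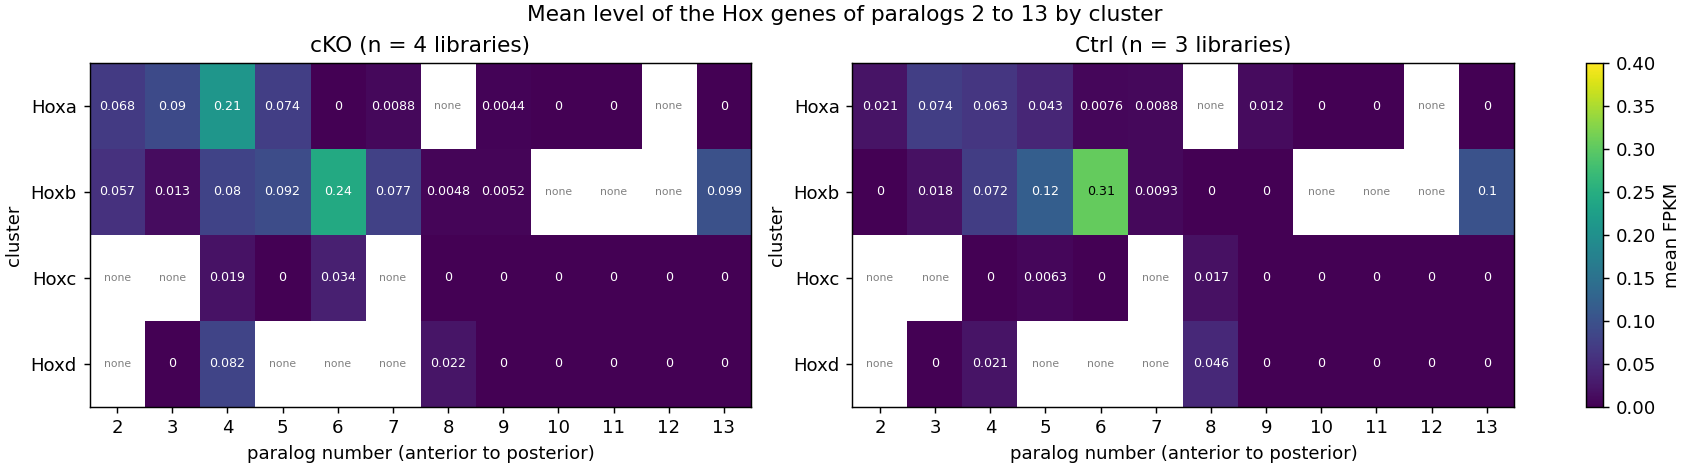
Mean FPKM of each Hox gene of paralogs 2 to 13 by cluster (rows) and paralog number (columns), in cKO (left, n = 4 libraries) and Ctrl (right, n = 3 libraries), with "none" where the mouse has no gene in the table. Hoxb6 is the highest in both panels, followed by Hoxa4 in cKO and Hoxb5 in Ctrl, and from paralog 10 on every cell is 0 except Hoxb13.

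The position of a gene in its cluster went with whether it was read. With the members divided into paralogs 1 to 3, 4 to 8 and 9 to 13, a division made with the values known and therefore not tested, reads fell on 5 of 8, 15 of 15 and 3 of 16 members. In paralog groups 10 to 13, 11 of the 12 genes had no read in any library, and the exception was Hoxb13. Summed FPKM for paralogs 1 to 3 was 0.240 ± 0.169 in cKO and 0.113 ± 0.0244 in Ctrl. For paralogs 4 to 8 it was 0.948 ± 0.440 in cKO and 0.719 ± 0.279 in Ctrl. For paralogs 9 to 13 it was 0.109 ± 0.129 in cKO and 0.114 ± 0.197 in Ctrl (SD, n = 4 and n = 3 in each case). The central paralogs had the highest summed level in both groups.

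Among the anterior genes, which act in the hindbrain and anterior trunk, Hoxa3 had the most reads of any member, with 103. Its reads were 18, 27, 9 and 8 in cKO and 17, 7 and 17 in Ctrl, so every library had some. Per length it was lower in the order, at a mean of 0.0829 FPKM over the 7 libraries, because its gene model holds 10599 bases. That model spans Hoxa4, Hoxa5 and Hoxa6 on the same strand, and how reads in the shared stretches were divided is not given in the sources used here. Hoxb2 had 7 reads, all in cKO replicate 1. Hoxb1, Hoxd1 and Hoxd3 had none.

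The central genes held the highest levels. Hoxb6, at chr11:96183647-96192395 (GRCm39, plus strand), had the highest mean of all members, 0.270 FPKM, and was the nearest to the level required for testing. It stood at 0.0349, 0.294, 0.555 and 0.0891 FPKM in cKO and at 0.160, 0.296 and 0.460 FPKM in Ctrl. The groups overlapped, with the lowest and the highest library both in cKO. The difference was -0.15 on the log2(FPKM + 0.5) scale (exact 2-sided permutation p = 0.571, n = 4 and 3).

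Hoxa4, at chr6:52166662-52168683 (GRCm39, minus strand), followed with a mean of 0.147 FPKM and was the highest of its cluster. It stood at 0.110, 0.232, 0.359 and 0.141 FPKM in cKO and at 0.0336, 0.155 and 0 FPKM in Ctrl, from 3, 6, 8 and 3 reads against 1, 4 and 0 reads. The groups overlapped, since Ctrl replicate 2 lay above cKO replicates 1 and 4. The log2 difference of 0.33 had the lowest p among the 23 members with reads (exact 2-sided permutation p = 0.171, where the smallest that 35 splits allow is 0.0571).

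Hoxd4, at chr2:74552322-74559504 (GRCm39, plus strand), led its cluster with a mean of 0.0557 FPKM. It stood at 0.0879, 0.0232, 0.215 and 0 FPKM in cKO and at 0.0403, 0.0233 and 0 FPKM in Ctrl. Both groups held a library with no read, and the highest value was in cKO replicate 3. Its log2 difference was 0.14 (exact 2-sided permutation p = 0.514, n = 4 and 3). Hoxd4 lies within the gene model of Hoxd3 on the same strand.

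Hoxa5, the most posterior Hoxa gene with at least 3 reads in a library, stood at 0.0300, 0.190, 0.0367 and 0.0383 FPKM in cKO and at 0, 0.0635 and 0.0658 FPKM in Ctrl. Only cKO replicate 2 lay above the Ctrl range, with 6 of the 13 reads. Hoxc6 led its cluster at a mean of 0.0197 FPKM, from 2 reads in cKO replicate 3 and 4 reads in cKO replicate 4, with 0 reads in the other libraries of either group. Hoxd8 had 1, 0, 2 and 0 reads in cKO and 0, 5 and 0 in Ctrl, and was the most posterior Hoxd gene with any read. None of these genes separated the groups, with exact 2-sided permutation p of 0.629 for Hoxa5, 0.571 for Hoxc6 and 0.857 for Hoxd8.

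**Figure D2:**
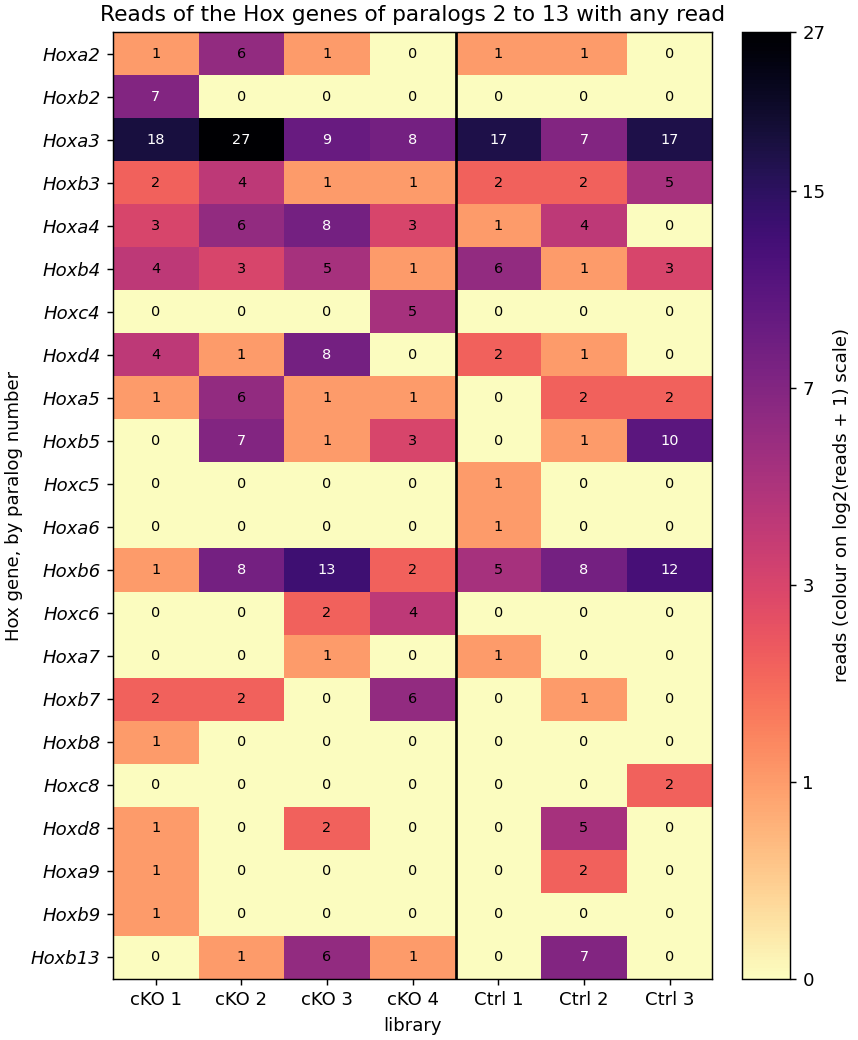
Reads of the 22 Hox genes of paralogs 2 to 13 with any read (rows, by paralog number) in the 4 cKO and 3 Ctrl libraries (columns); colour follows log2(reads + 1). Hoxa3, Hoxb3, Hoxb4 and Hoxb6 have reads in all 7 libraries, and genes read in 1 group alone (Hoxb2, Hoxb8, Hoxb9, Hoxc4 and Hoxc6 in cKO; Hoxa6, Hoxc5 and Hoxc8 in Ctrl) have at most 7 reads.

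The posterior genes, which pattern the hindgut and the end of the trunk, were nearly absent apart from Hoxb13. Hoxa9 had 3 reads and Hoxb9 had 1 over all libraries. Hoxa10, Hoxa11, Hoxa13, all 5 genes from Hoxc9 to Hoxc13 and all 5 genes from Hoxd9 to Hoxd13 had 0 reads in each of the 7 libraries. For a gene with no read, the 3 reads taken as the floor of a library correspond to 0.0601 to 0.0838 FPKM for Hoxd13 and 0.117 to 0.164 FPKM for Hoxa13 in a single library; over the 7 libraries together, 3 reads correspond to 0.0101 FPKM for Hoxd13 and 0.0197 FPKM for Hoxa13.

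Hoxb13, at chr11:96085142-96087436 (GRCm39, plus strand), had 15 reads (95% exact Poisson interval 8.40 to 24.7). It stood at 0, 0.0433, 0.302 and 0.0525 FPKM in cKO and at 0, 0.304 and 0 FPKM in Ctrl. Thus 13 of the reads lay in 1 library of each group, cKO replicate 3 with 6 and Ctrl replicate 2 with 7. The groups had means of 0.0994 ± 0.137 FPKM in cKO and 0.101 ± 0.176 FPKM in Ctrl (SD, n = 4 and n = 3; exact 2-sided permutation p = 0.914). Without both of those libraries Hoxb13 kept 2 reads, and all 23 members still had a read.

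Some other genes were also high in those libraries, and others were low. Aqp8, a water channel gene of the colon, stood at 0.0757, 0.120, 0.741 and 0 FPKM in cKO and at 0.0347, 1.56 and 0.790 FPKM in Ctrl. It was high in both Hoxb13 libraries and also in Ctrl replicate 3. Aqp8 was picked with its values known from 11 colon genes, Hoxb13 among them, which did not move together. Slc26a3 and Mettl7b were also highest of each group in the Hoxb13 libraries. Muc4 (1.61 FPKM in cKO replicate 3 and 1.93 FPKM in Ctrl replicate 2) and Car4 were lowest of each group there. Smooth muscle markers, of which all 7 were matched, summed to 0, 0, 0.311 and 0.143 FPKM in cKO and to 0.261, 0.801 and 0.229 FPKM in Ctrl. These sums were highest of each group in the Hoxb13 libraries but rest on few reads. In cKO replicate 3, Myh11 had 11 reads and Acta2 had 3, whereas Des had none. In Ctrl replicate 2, Acta2 had 11 reads and Des had 10. Of that list, Tagln and Lmod1 were at 0 in all cKO libraries. Markers of fibroblasts, 12 in all, summed to 8.77 to 26.6 FPKM in cKO and 8.86 to 21.01 FPKM in Ctrl, with 15.1 FPKM in cKO replicate 3 and 8.86 FPKM in Ctrl replicate 2. Enteric neuron and glia markers summed to 0.725 to 1.01 FPKM in cKO and 0.673 to 1.22 FPKM in Ctrl, with Sox10 at 0 in every library, and endothelial markers to 1.57 to 2.01 FPKM in cKO and 1.35 to 1.83 FPKM in Ctrl. Sums for T cells were 74.4 to 205 FPKM in cKO and 140 to 285 FPKM in Ctrl, for B cells 14.6 to 39.4 FPKM in cKO and 8.49 to 23.3 FPKM in Ctrl, and for macrophages 5.43 to 7.91 FPKM in cKO and 5.67 to 11.1 FPKM in Ctrl. In limma none of the smooth muscle or enteric markers could be tested, and 0 were called of the 3 fibroblast, 1 endothelial, 8 T cell, 4 B cell and 4 macrophage markers that were. The part of these genes' source cells in the Hoxb13 reads was not tested.

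**Figure D3:**
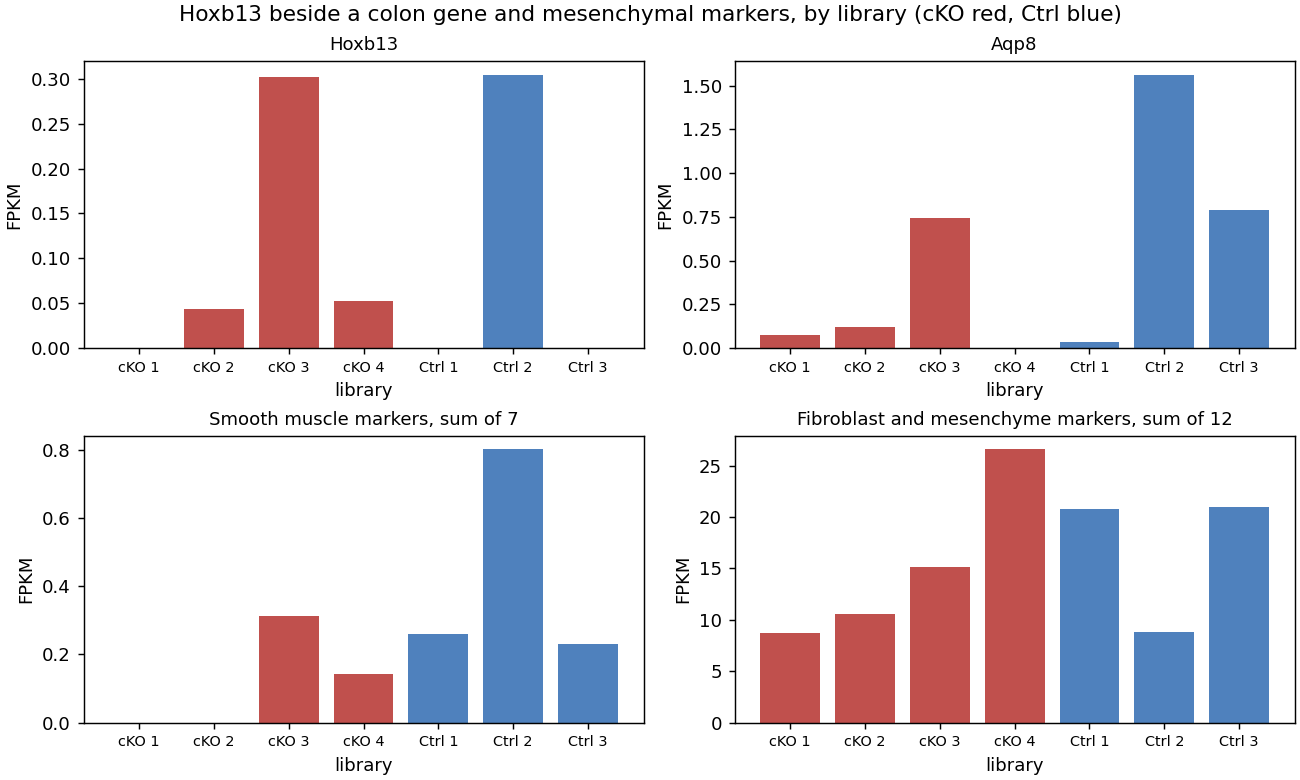
FPKM of Hoxb13, the colon gene Aqp8, the sum of 7 smooth muscle markers and the sum of 12 fibroblast markers, 1 bar per library with cKO (red) left of Ctrl (blue). Hoxb13 reaches 0.302 FPKM in cKO replicate 3 and 0.304 FPKM in Ctrl replicate 2, where the smooth muscle sum is also the highest of its group and the fibroblast sum is not.

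In both groups the Hoxa and Hoxb clusters had higher summed levels than Hoxc and Hoxd. Summed FPKM was 0.468 ± 0.261 in cKO and 0.229 ± 0.0872 in Ctrl for Hoxa, and 0.672 ± 0.266 in cKO and 0.625 ± 0.306 in Ctrl for Hoxb. For Hoxc it was 0.0533 ± 0.0797 in cKO and 0.0235 ± 0.0262 in Ctrl, and for Hoxd 0.104 ± 0.127 in cKO and 0.0671 ± 0.0838 in Ctrl (SD, n = 4 and n = 3). Libraries of the groups overlapped in every cluster. By single paralog number they overlapped or had no read, except for paralogs 4 and 7. Paralog 4 summed to 0.286, 0.325, 0.709 and 0.244 FPKM in cKO and 0.194, 0.202 and 0.0722 FPKM in Ctrl, from 51 and 18 reads. Paralog 7 summed to 0.0525, 0.0554, 0.0353 and 0.201 FPKM in cKO and 0.0264, 0.0278 and 0 FPKM in Ctrl, from 11 and 2 reads. Both were picked with their values known and were not tested. The sum over all members was 1.30 ± 0.514 FPKM in cKO and 0.945 ± 0.349 FPKM in Ctrl, a difference of 0.35 FPKM, with libraries of the groups overlapping. The Hox genes held 35 to 72 reads per library in cKO and 37 to 51 in Ctrl.

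**Figure D4:**
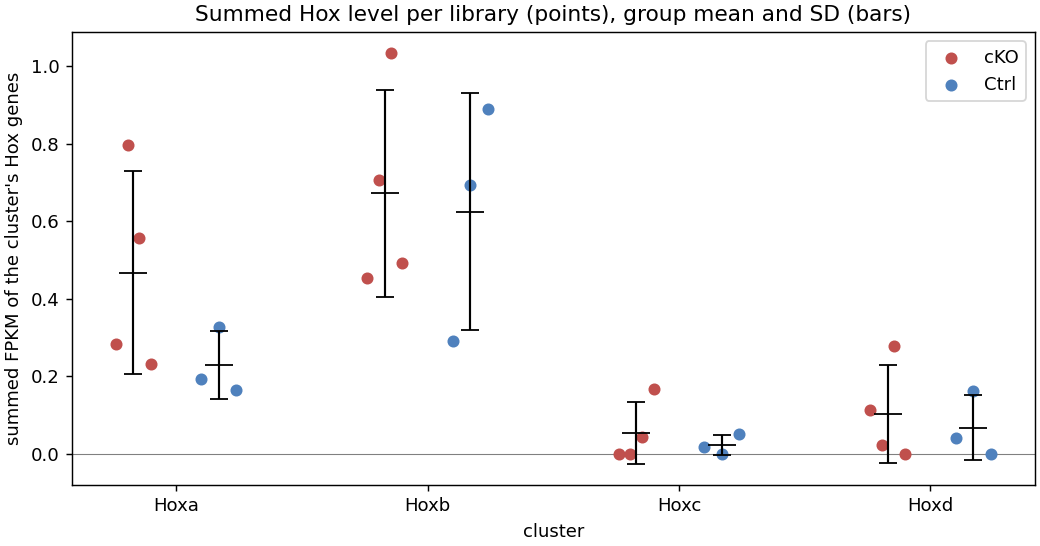
Summed FPKM of the Hox genes of each cluster, 1 point per library, with cKO (red, n = 4) left of Ctrl (blue, n = 3), and bars for the mean and SD. The points of the groups overlap in each cluster, and Hoxc and Hoxd lie below 0.3 FPKM in every library.

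As a measure of position, the mean paralog number weighted by FPKM was 4.003, 4.59, 6.15 and 5.71 in cKO and 4.57, 7.48 and 5.25 in Ctrl. The groups overlapped, and the difference of their means was -0.65 (5.12 ± 0.991 in cKO and 5.77 ± 1.52 in Ctrl; SD, n = 4 and n = 3). The highest values were those of the Hoxb13 libraries, and without Hoxb13 the means were 4.62 ± 0.556 in cKO and 5.13 ± 0.512 in Ctrl. With Ctrl replicate 2 left out, the difference over all members was 0.20, so its direction rested on that library.

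With all 46671 genes in the limma fit and no requirement on level, 6 genes were called (0.0129%), and 0 of the 39 Hox genes. At an unadjusted p under 0.05 there were 0 Hox genes, against 3.76% of all genes, and the lowest Hox p was 0.143 for Hoxa4 (limma adjusted p = 1). Their log2 differences lay between -0.15 for Hoxb6 and 0.33 for Hoxa4. Every Hox mean lay below the 0.5 FPKM added before the log, so the size of these differences depends on it. With 0.1 added instead they were -0.44 for Hoxb6 and 0.98 for Hoxa4, and with 1 added -0.082 and 0.19. The exact 2-sided permutation p of Hoxa4 was 0.171 with either. Hoxa3 had enough reads for limma voom on the recovered reads and was not called there. These p-values do not show that the groups were alike, since the counts behind each Hox gene were small.

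Cofactors and regulators of the Hox genes ranged from no read to levels far above those of any Hox gene. Of 9 TALE cofactor genes, 6 were tested and 0 called, 2 higher and 4 lower in cKO (median log2 difference -0.20, beside -0.008 over all genes tested). Pbx2 was the highest, at 10.2 ± 0.682 FPKM in cKO and 12.01 ± 1.19 FPKM in Ctrl (limma adjusted p = 0.593), followed by Pknox1 at 5.18 ± 0.469 FPKM in cKO and 4.69 ± 0.589 FPKM in Ctrl. Meis1, a cofactor of many Hox proteins, had 10 reads in all. Of the 6 ParaHox genes, Cdx2 stood at 101 ± 16.04 FPKM in cKO and 115 ± 21.7 FPKM in Ctrl, and Cdx1 at 72.0 ± 9.88 FPKM in cKO and 79.4 ± 4.29 FPKM in Ctrl. Neither was called (limma adjusted p = 0.784 and 0.761, n = 4 and 3). Pdx1, which marks the duodenum and pancreas, stood at 0.124 FPKM in cKO and 0.137 FPKM in Ctrl, and Cdx4, Gsx1 and Gsx2 had no read.

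All 25 Polycomb and Trithorax genes listed were tested and 0 were called, with 12 higher, 13 lower and 3 at an unadjusted p under 0.05 (Suz12, Cbx8 and Kdm6a), beside 1171 of all 13057 genes tested, a similar share. Suz12, a core subunit of Polycomb repressive complex 2, had the highest mean over the 7 libraries, at 18.0 ± 0.564 FPKM in cKO and 13.6 ± 0.409 FPKM in Ctrl (log2 difference 0.39, limma adjusted p = 0.452). Eed, of the same complex, stood at 14.5 ± 1.06 FPKM in cKO and 14.1 ± 1.72 FPKM in Ctrl. Of 16 genes of the retinoic acid pathway, a signal that sets Hox expression in the embryo, 7 were tested and 0 called (median log2 difference -0.24). All 7 were lower in cKO, beside 6694 lower of all 13057 genes tested, and 2 of them, Rxrb and Dhrs3, had an unadjusted p under 0.05. Aldh1a1, which makes retinoic acid, stood at 105 ± 35.9 FPKM in cKO and 129 ± 27.4 FPKM in Ctrl (SD, n = 4 and n = 3).

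The clusters lay in regions of low level, with expressed genes farther out on both sides. The Hoxb cluster spans chr11:96085142-96259080, Hoxc chr15:102829566-102945281 and Hoxd chr2:74498569-74595486 (GRCm39). Beyond the paralog 1 side of Hoxd, Mtx2, a mitochondrial import protein gene 60.7 kb away, stood at 36.1 ± 4.62 FPKM in cKO and 34.3 ± 2.95 FPKM in Ctrl. Beyond the paralog 13 side of Hoxb, Atp5g1, an ATP synthase subunit gene 119 kb away, stood at 178 FPKM in cKO and 221 FPKM in Ctrl. Skap2, 143 kb from Hoxa, stood at 17.95 FPKM in cKO and 16.5 FPKM in Ctrl. Evx1 and Evx2, homeobox genes next to paralog 13 of Hoxa and Hoxd, had no read, and Ttll6, 28.1 kb beyond paralog 13 of Hoxb, had a mean of 0.0165 FPKM over the 7 libraries. Of 31 other genes inside the clusters, the pseudogene Gm11539 in Hoxb was the only one with a mean of at least 0.5 FPKM, at 1.26 FPKM in cKO and 1.06 FPKM in Ctrl. All 6 such genes in Hoxc and all 5 in Hoxd had no read, Hotair and Haglr included.

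**Figure D5:**
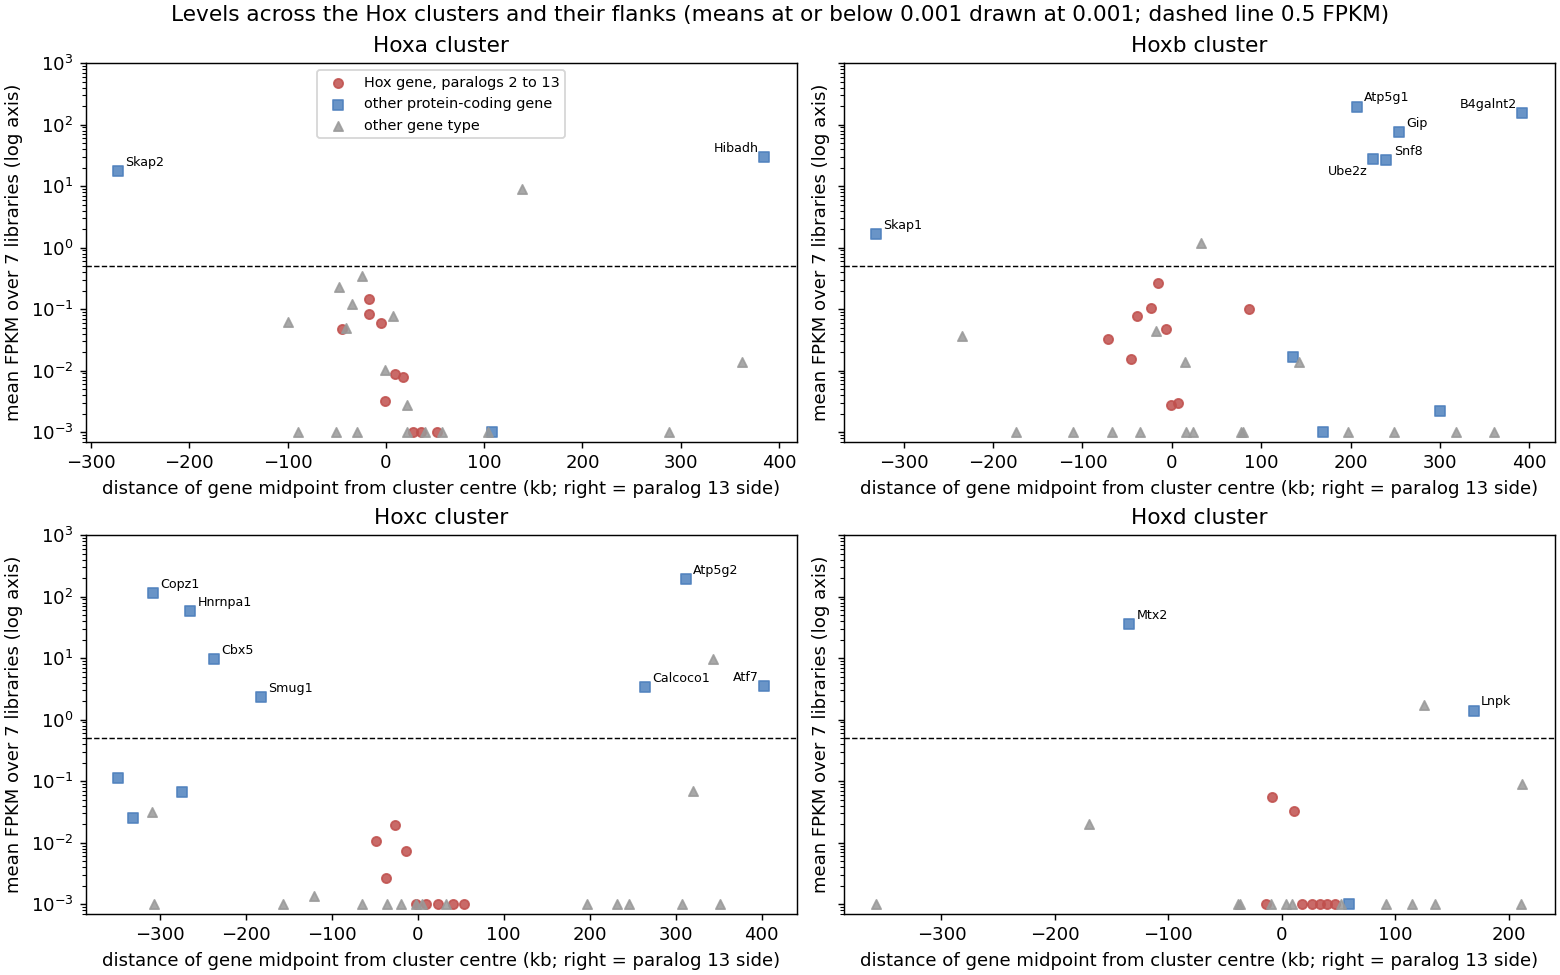
Mean FPKM over the 7 libraries (log axis; means at or below 0.001 drawn at 0.001) against the distance of each gene's midpoint from the centre of its Hox cluster in kb, with the paralog 13 side on the right. Hox genes of paralogs 2 to 13 (red circles) lie below the dashed line at 0.5 FPKM in all 4 clusters, and the named neighbours (blue squares) lie above it.

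Promoter sequences were matched for 22 of the 39 genes (56.4%), too few to compare read and unread genes over all clusters, so a check over the whole set is void. Hoxd was the only cluster matched in full, 9 of 9. Shown here are the 250 bases before the start of its genes Hoxd4 and Hoxd8, the only ones read, and of Hoxd13 at the posterior end of the cluster, chosen after their values were seen. The sequences are from RefSeq on GRCm38.p6, plus strand, with each CG dinucleotide in capitals; unmethylated CG-rich promoters are the sites at which Polycomb complexes are known to bind.
Hoxd4, chr2:74721728-74721977: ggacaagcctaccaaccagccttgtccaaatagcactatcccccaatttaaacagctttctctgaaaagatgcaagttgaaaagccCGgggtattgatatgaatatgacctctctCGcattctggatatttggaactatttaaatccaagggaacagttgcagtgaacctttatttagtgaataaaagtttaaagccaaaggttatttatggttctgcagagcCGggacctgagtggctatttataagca
Hoxd8, chr2:74704365-74704614: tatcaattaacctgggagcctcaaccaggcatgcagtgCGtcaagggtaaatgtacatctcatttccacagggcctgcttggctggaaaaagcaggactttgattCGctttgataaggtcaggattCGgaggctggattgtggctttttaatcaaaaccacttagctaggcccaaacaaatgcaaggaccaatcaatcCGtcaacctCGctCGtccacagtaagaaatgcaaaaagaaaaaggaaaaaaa
Hoxd13, chr2:74667975-74668224: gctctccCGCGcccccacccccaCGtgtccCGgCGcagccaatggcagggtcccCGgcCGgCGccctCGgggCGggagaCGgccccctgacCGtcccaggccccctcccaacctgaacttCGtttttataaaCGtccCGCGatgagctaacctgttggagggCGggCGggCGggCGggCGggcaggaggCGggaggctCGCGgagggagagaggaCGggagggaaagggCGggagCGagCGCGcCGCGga
Hoxd4 held 3 CG and Hoxd8 held 6, and the promoters of the 7 genes without reads held 2 to 31, the lowest and a second one of 20 both at Hoxd11. Hoxd13 was at the top with 31. As many CG or more occurred in 71.0%, 50.4% and 5.19% of the 32851 promoters of the same length for Hoxd4, Hoxd8 and Hoxd13. In Hoxa, where 9 of 11 genes were matched, the read genes ranged from 3 CG at Hoxa9 to 28 at Hoxa5, and the unread genes from 7 at a start of Hoxa10 to 35 at Hoxa13, so the ranges overlapped. These counts describe the sequences and were not tested against the levels.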

How the data were processed

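The deposited table gave, per its header, FPKM values by the authors for each gene and library, with gene lengths. HISAT2 is the aligner named in the submitters' processing notes; how reads were counted, with which strand setting and annotation, is not given in the sources used here. Chromosome accessions of the table are those of GRCm39. Multiplied by gene length and divided by a constant of the library, 100% of values were whole (tolerance 0.01 reads), which gave the reads behind each value. Genes averaging 0.5 FPKM or more were compared on log2(FPKM + 0.5), a scale that understates changes of low genes, with limma 3.58.1 in R 4.3.3 (trend, 2-sided, Benjamini-Hochberg adjustment over all genes tested, threshold 0.05), checked on simulated data. Single Hox genes were compared by exact 2-sided permutation over the 35 splits of 7 libraries (SciPy 1.17.1). Sums and the weighted paralog number were described without a test. Detected meant at least 3 reads in a library. Named were Stk24, in each cluster the member of highest mean and the most posterior one with 3 reads, and up to 4 of the most abundant members of each other list; further names were chosen after their values were seen, and some single genes are not reported here. The members and all 19 gene lists were chosen with earlier results of these data known. Alternatives were other pseudocounts, filters and scalings, voom, the replicate number as a block, and leaving out libraries; combinations with no filter, the omission of Hoxb13 and some left-out libraries were added after seeing the data.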

Additional observations from a re-analysis of the deposited data

Results flagged for a closer look

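Of 22 measures checked in the 4 cKO libraries, 3 had 1 library set apart from the other cKO libraries by Dixon's criterion; groups of 3, such as Ctrl, were not checked, and chance alone sets some groups apart. Hoxa5 was at 0.190 FPKM in cKO replicate 2, from 6 reads, against 1 read in each of the other cKO libraries. Hoxb2 was at 0.228 FPKM in cKO replicate 1, from 7 reads, with none in any other library. Hoxc4 was at 0.0754 FPKM in cKO replicate 4, from 5 reads, with none in any other library. The 3 values came from 3 different libraries. A gene read in a single cKO library always meets the criterion, so the flags of Hoxb2 and Hoxc4 add nothing to their reads. Hoxa7, Hoxa9, Hoxb8 and Hoxb9 were also read in a single cKO library, with 1 read each there, and are not among the 3 flagged. The flags therefore do not cover every read Hox gene.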

How the results depend on the processing

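No Hox gene reached the filter in the fit reported, in the alternatives that kept a filter on FPKM or in the fits with 1 library left out, so their counts of 0 called (0 to 0) carry no information. All 39 entered the fits with no filter, which called 0 under each pseudocount, scaling, block and left-out library tried. With no filter 0 had an unadjusted p under 0.05, and with limma voom, where Hoxa3 alone had enough reads, 0 were called. The whole table gave 4 calls in the fit reported, but 1 with a pseudocount of 0.1 or a mean of at least 1 FPKM, 2 with voom and 1 to 7 with 1 library left out. Without a filter it gave 6, and 0 to 57 with 1 library left out, highest without Ctrl replicate 3. With the replicate number of the titles as a block (the deposited columns carry other numbers, none of them shared between the groups), 0 genes of the whole table were called, and Stk24 kept its size (-2.44) but not its call (adjusted p = 0.137). Deviations from the group mean, over genes averaging at least 0.5 FPKM, correlated at 0.12, -0.087 and -0.13 between same-numbered libraries. Between libraries of different number they correlated at -0.18 to 0.31, highest for cKO replicate 3 with Ctrl replicate 2. With so few libraries, whose deviations sum to 0 in each group, these values cannot decide whether same-numbered libraries were paired. Stk24 lay between -2.48 and -2.37 with 1 library left out. Detected Hox genes numbered 23 at 1 read and 3 at 10 reads, beside 15 at 3 reads, and 12 to 15 with 1 library left out. With 1 library left out, the log2 difference lay between -0.019 and 0.11 for Hoxa5 (-0.019 without cKO replicate 2). It lay between -0.14 and 0.24 for Hoxb13 (-0.14 without cKO replicate 3, -0.11 without Ctrl replicate 1 or 3), and between -0.11 and 0.062 for Hoxd8 (0.062 without Ctrl replicate 2). Hoxa4 (0.24 to 0.45), Hoxb6 (-0.34 to -0.01), Hoxc6 (0.04 to 0.12) and Hoxd4 (0.04 to 0.21) kept their sign. The difference in weighted paralog number lay between -1.25 and 0.20, and that in summed FPKM between 0.146 and 0.4997 for all Hox genes. By cluster it lay between 0.129 and 0.317 for Hoxa, -0.12 and 0.18 for Hoxb, -0.0086 and 0.048 for Hoxc, and -0.021 and 0.084 for Hoxd. The sign changed for Hoxb without cKO replicate 3 or Ctrl replicate 1, for Hoxc without cKO replicate 4 and for Hoxd without cKO replicate 3. The cause of these shifts was not tested. Sums over members with a mean of at least 0.5 FPKM, and single named Hox genes under voom, gave no value, since no such member passed. Depth limits every Hox value, with at most 27 reads per gene and library.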
